A study of Homo sapiens with 12 samples.

Results

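The 9 genes described here encode subunits of the NADPH oxidases and were taken by symbol from the 58288 genes listed for each library: the membrane subunits CYBA and CYBB, the cytosolic subunits NCF1 and NCF4, the catalytic enzymes NOX1, NOX4, DUOX1 and DUOX2, and the maturation factor DUOXA1. Each symbol matched a single listed gene. Of the 9 genes, 3 (CYBA, DUOX1 and NCF1) reached 1 transcript per 1000000 (1 TPM) in at least 3 of the 12 libraries and could be tested together with all other expressed genes. The other 6 (CYBB, DUOXA1, NCF4, DUOX2, NOX1 and NOX4) did not, and are called too low to judge throughout. Their values and, where run, exact tests are given as a description only.

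NADPH oxidases carry electrons from NADPH across a membrane to oxygen, which yields superoxide or hydrogen peroxide. The phagocyte enzyme, NOX2, is made of the catalytic CYBB and its partner CYBA in the membrane and is switched on when cytosolic proteins, among them NCF1, NCF4 and a RAC protein, arrive at it; it is best known for the oxidative burst of neutrophils and macrophages. Squamous epithelia use the dual oxidases DUOX1 and DUOX2, which release hydrogen peroxide at the cell surface and leave the endoplasmic reticulum only with their maturation factors DUOXA1 and DUOXA2.

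RNA-Seq was performed on FaDu cells, an established human head and neck squamous cell carcinoma line carrying lentiviral Cas9, to ask how loss of STING alters gene expression at baseline and after radiation. STING WT cells received a non-targeting guide RNA and STING KO cells a guide RNA against STING; both were puromycin-selected populations that the methods do not describe as clones. Both lines were studied unirradiated (WT, KO) or after 4 daily fractions of 2 Gy (WT + RT, KO + RT), with 3 libraries per group. The labels do not say whether the libraries of a group came from separate cultures, so p-values measure only the spread between these libraries.

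TMEM173, the gene that encodes STING, was listed at 21.7, 23.5 and 21.1 TPM in WT and 26.1, 21.4 and 21.7 TPM in WT + RT libraries. It was listed at 5.18, 5.29 and 6.96 TPM in KO and 6.35, 7.41 and 7.08 TPM in KO + RT libraries, so the groups did not overlap and a part of the transcript remained in the KO population. In RNA from whole cultures, fewer cells with a transcript and less of it per cell cannot be told apart. Within a group, libraries correlated across genes with Pearson's r of 0.983 to 0.987, and between 14860 and 15292 genes reached 1 TPM per library. TPM keeps no read depth, so the number of reads behind each value is unknown and no counting interval can be given. Of the phagocyte markers, ELANE was listed at 0 in all 12 libraries, MPO was above 0 in 1 library, and PTPRC and SPI1 reached at most 0.0894 and 0.212 TPM. ITGAM was above 0 in all 12 libraries, between 0.462 and 1.41 TPM, and CSF1R was listed at 0 in the 3 WT libraries and at up to 0.4 TPM in irradiated ones. The 8 phagocyte markers, most of whose sum was CD68, summed to between 20.001 and 26.05 TPM in WT, 19.5 and 28.9 in KO, 28.0 and 34.8 in WT + RT, and 21.9 and 29.5 TPM in KO + RT libraries. The sum was higher after radiation without overlap in WT cells, where 9.92% of all genes above 0 were, and overlapped in KO cells. None of the 3 tested markers passed in WT cells after radiation. CD68 differed by 0.62, CD14 by 0.08 and ITGAM by -0.22 (limma adjusted p = 0.14, 0.67 and 0.62). CD14 rose in unirradiated KO cells by 0.40 on the log2 scale (limma adjusted p = 0.043). The 6 squamous markers summed to between 2611 and 5514 TPM, with a mean of 3282 in WT, 4503 in KO, 2892 in WT + RT and 3904 TPM in KO + RT libraries. KO lay above WT without overlap in the unirradiated and irradiated arms, where 5.63% and 6.43% of all genes above 0 did. KRT5 carried this gap, at a mean of 2587 in WT, 3790 in KO, 2158 in WT + RT and 3136 TPM in KO + RT libraries, while the other 5 markers summed to means of 696, 713, 735 and 768 TPM. Over both arms KRT5 rose in KO by 0.53 and KRT14 by 0.17 (limma adjusted p = 0.020 and 0.0099), whereas TP63 differed by -0.22 (adjusted p = 0.19), and EPCAM rose after radiation over both genotypes by 0.16 (adjusted p = 0.0026). The part of these marker differences in any oxidase value was not tested.

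Short stretches of sequence are shown first because they bear on how the values can be read. NCF1 (chr7:74773962-74789315, plus strand, hg38) has a pair of near-identical copies, NCF1B and NCF1C, annotated as pseudogenes on the same chromosome. Over 1386 identical and 8 mismatched bases, the NCF1 and NCF1C transcripts were 99.4% identical. The gap between them is the best known mark of the pseudogene and lies at the junction of exons 1 and 2 inside the coding sequence. In the reference sequences below, the capitals mark the 2 bases of NCF1 that NCF1C lacks; because the bases around them repeat, the exact placement within the repeat is arbitrary. The NCF1 stretch starts at base 74774074 and ends at base 74777296 of chromosome 7, across the intron.
NCF1: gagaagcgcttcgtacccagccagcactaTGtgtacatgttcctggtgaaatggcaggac
NCF1C: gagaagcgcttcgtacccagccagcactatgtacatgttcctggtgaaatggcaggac

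The other sequences are promoters. Since STING signals through interferon regulatory factors, RefSeq promoter windows (GRCh38.p14, 300 bases each, most of it before the start site) were searched on both strands for the interferon-stimulated response element, here the letters GAAA given again after 2 bases of any kind, and for the gamma-activated site TTCNNNGAA, as a description of their letters only. Windows were found for every member except NCF4. The response element occurred in the windows of NCF1, once, and CYBB, on each strand once, and in none of CYBA, DUOX1, DUOX2, DUOXA1, NOX1 and NOX4; of all 35116 windows, 3.57% held it. The gamma-activated site occurred in a single window of NOX4 and in 7.66% of all windows. The upstream parts of the NCF1 window (chr7:74773761-74773961) and the CYBB window (chrX:37779809-37780010), both plus strand, are printed with the response element in capitals.
NCF1: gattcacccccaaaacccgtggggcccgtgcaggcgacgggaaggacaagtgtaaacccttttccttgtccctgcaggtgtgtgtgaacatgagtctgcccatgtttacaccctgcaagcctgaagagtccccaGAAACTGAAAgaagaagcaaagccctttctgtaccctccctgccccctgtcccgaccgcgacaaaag
CYBB: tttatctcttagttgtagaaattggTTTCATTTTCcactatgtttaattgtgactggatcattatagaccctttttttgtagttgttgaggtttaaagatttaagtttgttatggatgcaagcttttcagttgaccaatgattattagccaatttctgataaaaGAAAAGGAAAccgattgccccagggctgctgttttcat

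The subunits fell into a steep order of TPM, a unit that is per transcript length and so can be compared between genes. CYBA led with a mean of 293 TPM over the 12 libraries (271 to 314), followed by DUOX1 at 9.80 (8.28 to 13.4) and NCF1 at 2.30 TPM (1.27 to 4.30), with no overlap between these neighbours. CYBB at 0.452 (0.308 to 0.591), DUOXA1 at 0.416 (0.130 to 0.656), NCF4 at 0.215 (0 to 0.759) and DUOX2 at 0.144 TPM (0.0274 to 0.593) overlapped, each with the next. NOX1 was above 0 in 1 library, at 0.0178 TPM, and NOX4 was listed at 0 in all 12 libraries. The CYBA value was 459 to 996 times that of CYBB, its NOX2 partner, within a library (median 662), and the DUOX1 value was 13.9 to 76.4 times that of its maturation factor DUOXA1 (median 23.9).

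**Figure D1:**
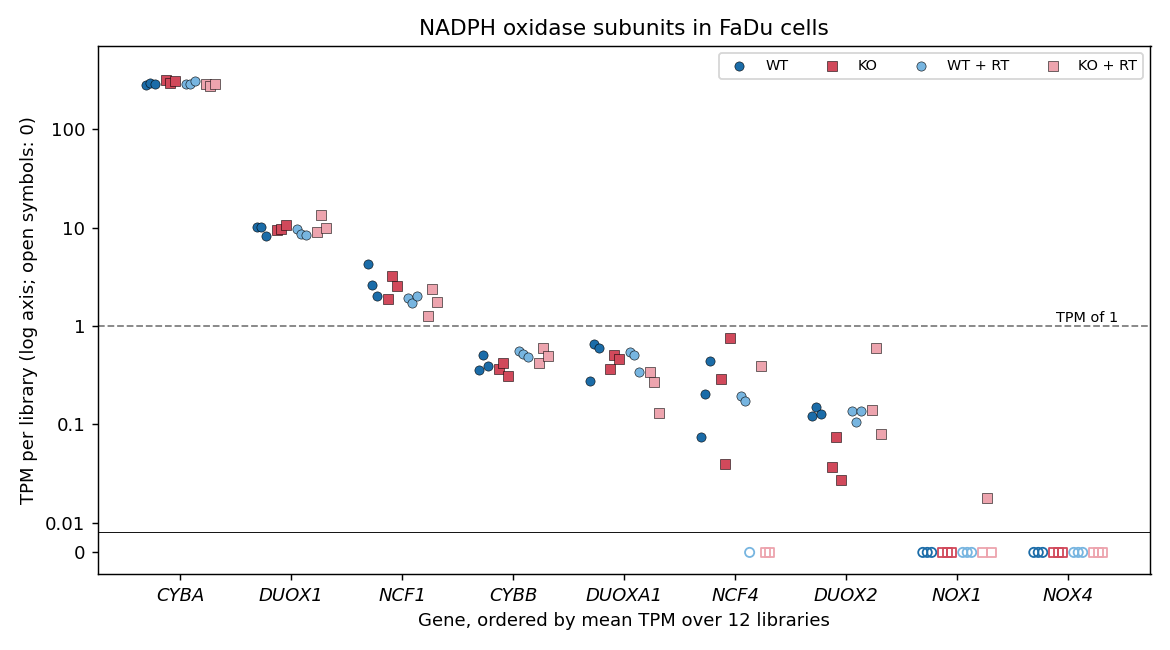
TPM of the 9 NADPH oxidase subunits in each of the 12 libraries on a log axis, with circles for WT and squares for KO libraries, dark when unirradiated and light after radiation. Open symbols under the line are values of 0, and only CYBA, DUOX1 and NCF1 lie above the dashed line at 1 TPM.

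STING KO was compared with WT first in unirradiated and then in irradiated cells. None of the 3 tested subunits passed the test in either arm by limma on log2(TPM + 1) with Benjamini-Hochberg adjustment over 15973 genes, which does not show that they were unchanged: 0 of 3 members passed in unirradiated cells, where 1.73% of all tested genes did, and 0 of 3 in irradiated cells, where 3.59% did. None of the 3 had an unadjusted p under 0.05 in either arm, where 14.3% and 17.9% of all tested genes did. Over both arms together, 0 of 3 passed against 7.43% of all tested genes. Changes are given on the log2(TPM + 1) scale, which understates differences of genes near 1 TPM.

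CYBA (chr16:88643283-88651152, minus strand) encodes p22phox, the membrane partner that several NOX enzymes share. It was listed at 281.4, 294.0 and 289.1 TPM in WT and at 314.5, 292.4 and 307.1 TPM in KO libraries. After radiation it stood at 288.1, 287.1 and 310.4 TPM in WT + RT and 289.0, 271.4 and 286.1 TPM in KO + RT libraries. WT and KO overlapped in both arms, and the spread was small, with a mean coefficient of variation of 3.43% within groups against a median of 5.56% among genes of 100 to 1000 TPM. The log2 difference of KO from WT was 0.08 (95% interval -0.02 to 0.18) in unirradiated and -0.06 (-0.17 to 0.04) in irradiated cells, so a difference in CYBA larger than these bounds lies outside the interval of the limma fit. Genes whose log2(TPM + 1) followed CYBA most closely over the 12 libraries were NR2F6 (Pearson's r = 0.83), RPL30 (0.82) and HOTAIRM1_4 (0.82), given as a description since all share the same libraries.

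DUOX1 (chr15:45129933-45165576, plus strand), the dual oxidase of squamous and airway epithelium, was listed at 10.2, 10.2 and 8.28 TPM in WT and 9.52, 9.60 and 10.6 TPM in KO libraries. The irradiated values were 9.76, 8.59 and 8.39 TPM in WT + RT and 9.09, 13.4 and 9.96 TPM in KO + RT libraries, the highest value being that of KO + RT replicate 2. The groups overlapped in both arms, with a log2 difference of KO from WT of 0.05 (95% interval -0.24 to 0.34) in unirradiated and 0.24 (-0.05 to 0.53) in irradiated cells by limma. Without KO + RT replicate 2 the second value was 0.09.

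NCF1, the organizer p47phox that carries the cytosolic complex to the membrane, was listed at 4.30, 2.61 and 2.02 TPM in WT and 1.89, 3.23 and 2.52 TPM in KO libraries. Radiation gave 1.93, 1.70 and 2.03 TPM in WT + RT and 1.27, 2.39 and 1.74 TPM in KO + RT libraries. KO and WT overlapped in both arms, with log2 differences of -0.14 (95% interval -0.63 to 0.35) and -0.06 (-0.56 to 0.43) by limma. These intervals are the widest of the 3 tested subunits, and changes of up to about the size of the bounds cannot be told from none.

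**Figure D2:**
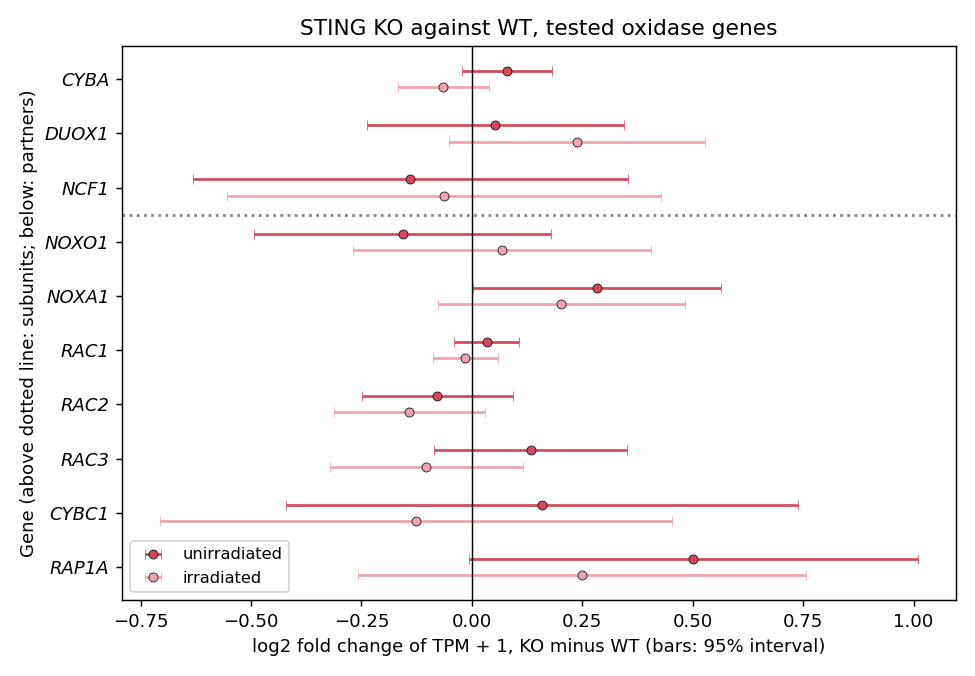
Log2 fold change of TPM + 1, KO minus WT, with 95% intervals from limma, for the 3 tested subunits above the dotted line and 7 oxidase partners below it. The intervals of CYBA, DUOX1 and NCF1 include 0 in unirradiated (dark) and irradiated (light) cells, and that of CYBA is the narrowest of the 3.

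Fractionated radiation was then compared with no radiation within each line. Among the 3 tested subunits, 0 passed in WT cells, where 3.74% of all tested genes did, and 0 passed in KO cells, where 3.69% did. Over both genotypes, 0 of 3 passed against 10.2% of all tested genes. By unadjusted limma p under 0.05 the counts were 0, 1 (CYBA) and 1 (NCF1) of 3, against 18.2%, 18.1% and 24.5% of all tested genes. In KO cells the irradiated CYBA values were all below the unirradiated ones, with a mean of 282 TPM in KO + RT against 305 TPM in KO, a log2 difference of -0.11 (95% interval -0.21 to -0.01; limma adjusted p = 0.24), while in WT cells it differed by 0.03 (-0.07 to 0.14). The difference between these radiation effects was -0.14 (limma adjusted p = 0.75), and 0.0188% of all tested genes passed in that comparison. DUOX1 differed by -0.09 (-0.38 to 0.20) in WT and 0.10 (-0.19 to 0.39) in KO cells. NCF1 was lower after radiation in both lines, by -0.42 (-0.91 to 0.07) in WT and -0.34 (-0.84 to 0.15) in KO cells, and by -0.38 (-0.73 to -0.03) over both genotypes (limma adjusted p = 0.16), a difference that did not pass the adjustment.

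Since 64.5% of all 100-base windows of the NCF1 transcript also occurred in NCF1B or NCF1C, reads of that length from most of NCF1 could have been assigned to a copy, and NCF1 was also summed with its copies. NCF1 held between 62.6% and 81.7% of the sum (median 70.7%), NCF1C was listed between 0.390 and 1.21 TPM, and NCF1B never exceeded 0.207 TPM. The sum was 5.39, 3.66 and 3.22 TPM in WT, 2.72, 4.16 and 3.52 TPM in KO, 2.75, 2.65 and 3.17 TPM in WT + RT, and 1.89, 3.18 and 2.13 TPM in KO + RT libraries. After radiation the 3 WT libraries were all below the unirradiated WT libraries, as for 6.16% of all genes above 0, while those of KO overlapped. Averaged over both genotypes, the sum was 3.78 TPM without and 2.63 TPM with radiation (two-sided exact permutation test within genotypes, p = 0.015; the smallest possible is 0.005). The tests of the sum were not among those planned, and their p-values carry no adjustment for the number of tests. Leaving out KO replicate 2, KO + RT replicate 1 or KO + RT replicate 3 gave exact permutation p-values of 0.055, 0.06 and 0.05, so the call rests on those libraries. KO and WT did not differ detectably in the sum (2.93 against 3.47 TPM over both arms, p = 0.235 by the same exact permutation test).

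**Figure D3:**
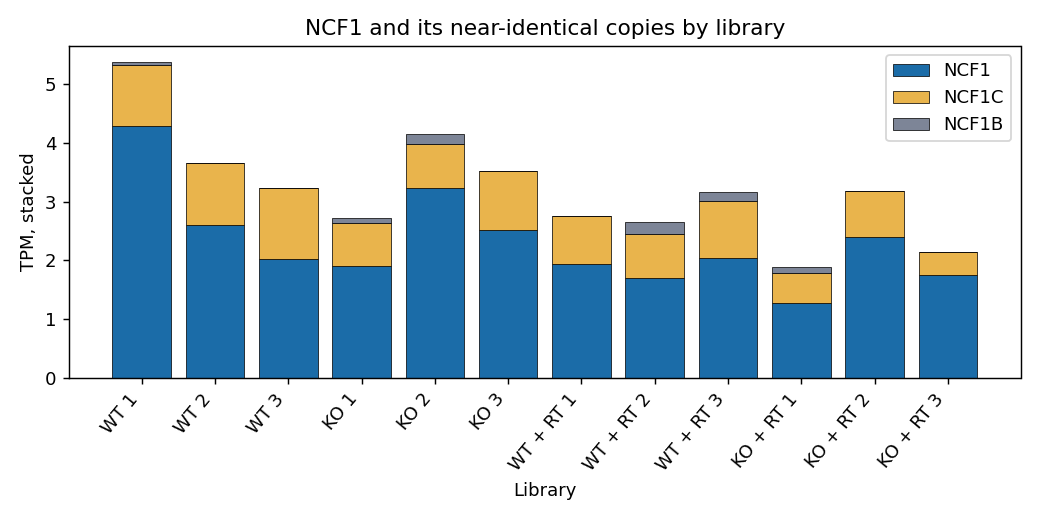
Stacked TPM of NCF1 and its near-identical copies NCF1C and NCF1B in each library. The bars run from 1.89 TPM in KO + RT replicate 1 to 5.39 TPM in WT replicate 1, and NCF1 is the largest segment of each.

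The 6 remaining subunits were described library by library, because each was below 1 TPM in every library and genes listed at 0.1 to 1 TPM varied within groups by a median of 57.0%. Of these, 5 were compared by two-sided exact permutation tests of mean TPM. A test of 3 against 3 libraries cannot give a p under 0.1, and the test over all 12 libraries, with labels permuted within the other factor, cannot go under 0.005. Of the 10 tests over all 12 libraries, 5 for KO and 5 for radiation, 1 gave a p under 0.05, that of CYBB with radiation. NOX1 was above 0 in 1 library only, so its tests could not give a small p under any arrangement. The p-values of the 10 tests carry no adjustment for the number of tests.

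CYBB (chrX:37780011-37813461, plus strand) encodes gp91phox, the catalytic NOX2 protein. It was listed at 0.358, 0.512 and 0.389 TPM in WT and 0.361, 0.424 and 0.308 TPM in KO libraries. The irradiated values were 0.563, 0.515 and 0.488 TPM in WT + RT and 0.418, 0.591 and 0.490 TPM in KO + RT libraries. Both lines were higher on average after radiation, with overlap in each. Averaged over both genotypes, CYBB was 0.392 TPM without and 0.511 TPM with radiation (exact permutation p = 0.025), and leaving out each library in turn gave exact permutation p-values of at most 0.045. In the limma fit to all listed genes without a filter the adjusted p was 0.26, so the difference did not pass there. The summed phagocyte markers, mostly CD68, were higher without overlap after radiation in WT cells and overlapped in KO cells, as given above. Their part in the CYBB values was not tested. KO and WT stood at 0.432 and 0.471 TPM over both arms (exact permutation p = 0.33).

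NCF4 (chr22:36860988-36878015, plus strand) encodes p40phox, the third cytosolic phox protein, and overlaps the antisense gene NCF4-AS1; the strand setting of the counting is not given in the sources used here. It was listed at 0.0752, 0.205 and 0.443 TPM in WT and 0.291, 0.0399 and 0.759 TPM in KO libraries. In irradiated cells it was listed at 0.194, 0.172 and 0 TPM in WT + RT and 0.396, 0 and 0 TPM in KO + RT libraries. The groups overlapped in every comparison, all 3 values of 0 were in irradiated libraries, and neither the KO comparison (exact permutation p = 0.625) nor the radiation comparison (exact permutation p = 0.23) over 12 libraries separated them.

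DUOX2 (chr15:45092650-45114344, minus strand), the second dual oxidase, was named by the study as a gene identified in these same libraries, so its values here are no independent evidence. The study, which used DESeq2, placed it among genes of reactive oxygen homeostasis and described genes of such pathways as downregulated by STING KO. For several of them it also reported that KO prevented the rise after radiation, without stating in its text whether DUOX2 is among these. Of the 100-base windows of the DUOX1 transcript, 4.81% also occurred in DUOX2. It was listed at 0.122, 0.150 and 0.127 TPM in WT and 0.0368, 0.0739 and 0.0274 TPM in KO libraries. In irradiated cells it was listed at 0.137, 0.106 and 0.136 TPM in WT + RT and 0.141, 0.593 and 0.0795 TPM in KO + RT libraries. Unirradiated KO libraries were all below the WT libraries (log2 ratio of means -1.53; exact permutation p = 0.1, the smallest possible), the only member of the 8 above 0 without overlap in that comparison, where 7.57% of all genes above 0 were lower and 5.63% higher without overlap. Irradiated KO and WT libraries overlapped, and over both arms the means were 0.159 and 0.130 TPM (exact permutation p = 0.985). KO + RT libraries were all above the KO libraries, whereas those of WT + RT and WT overlapped. KO + RT replicate 2 decides the comparison over both arms, since without it KO was lower by 0.0513 TPM (exact permutation p = 0.035).

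DUOXA1 (chr15:45117367-45129938, minus strand), which lets DUOX1 mature, starts next to DUOX1 on the opposite strand. The genes overlap by a few bases in the annotation. DUOXA1 was listed at 0.276, 0.656 and 0.594 TPM in WT and 0.367, 0.501 and 0.463 TPM in KO libraries. After radiation it stood at 0.547, 0.510 and 0.337 TPM in WT + RT and 0.340, 0.270 and 0.130 TPM in KO + RT libraries. KO + RT libraries were all below the KO libraries (means 0.247 and 0.444 TPM; exact permutation p = 0.1, the smallest possible), and those of WT + RT and WT overlapped. Over all 12 libraries neither KO (exact permutation p = 0.105) nor radiation (exact permutation p = 0.155) gave a p under 0.05. Without WT replicate 1 both gave an exact permutation p of 0.01, at values too low to judge. In irradiated KO cells 3 of the 8 subunits above 0 therefore lay without overlap against unirradiated KO cells, CYBA and DUOXA1 lower and DUOX2 higher; of all genes above 0, 6.27% were lower and 9.12% higher without overlap. No subunit was without overlap in irradiated KO against WT cells (6.43% of all genes higher, 9.3% lower) or in WT cells after radiation (9.92% higher, 6.16% lower).

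NOX1 (chrX:100843324-100874345, minus strand), the colon-type enzyme that NOXO1 and NOXA1 serve, was above 0 only in KO + RT replicate 2. NOX4 (chr11:89324356-89498187, minus strand), which needs CYBA but no cytosolic subunit, was listed at 0 throughout and could not be compared. KO + RT replicate 2 was the highest of the 12 libraries for DUOX1, CYBB and DUOX2 and the only library with NOX1. The same library was the lowest of the 12 for CYBA, at 271 TPM, and listed NCF4 at 0.

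**Figure D4:**
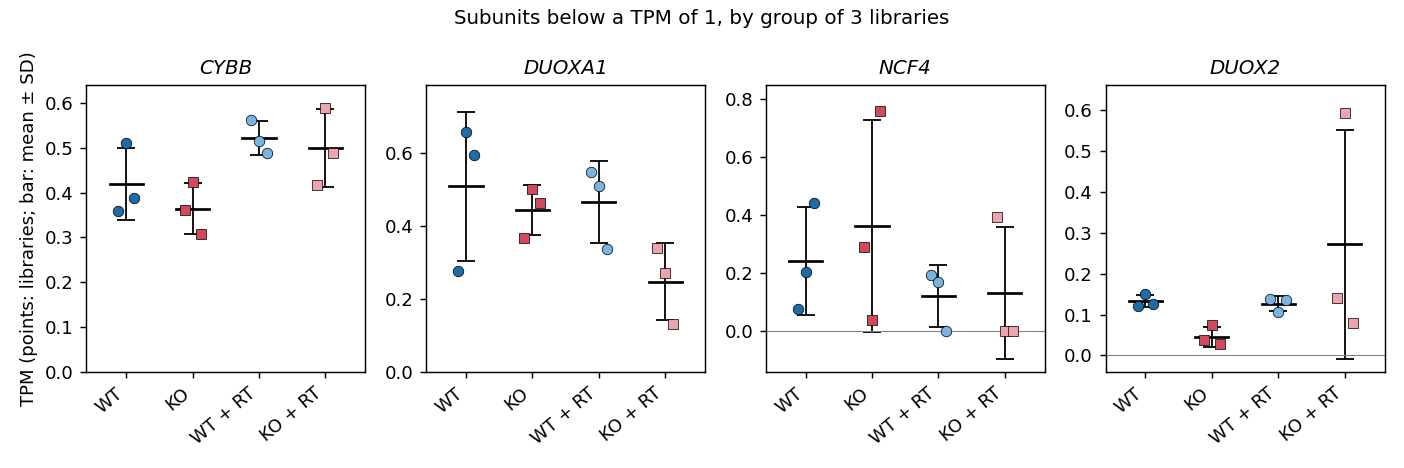
TPM of CYBB, DUOXA1, NCF4 and DUOX2 by group, with each point a library and bars for the mean ± SD of 3 libraries. CYBB is higher on average after radiation in both lines, DUOX2 is lowest in unirradiated KO cells at 0.0274 to 0.0739 TPM, and 1 KO + RT library at 0.593 TPM sets the DUOX2 mean of its group.

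Proteins that work with these subunits were followed through 10 oxidase partners, of which 7 were tested. In STING KO against WT, 0 of these 7 passed by limma in unirradiated cells (1, NOXA1, had an unadjusted p under 0.05, against 14.3% of all tested genes), where 1.26% of all tested genes fell and 0.463% rose, and 0 of 7 in irradiated cells (0 with an unadjusted p under 0.05, against 17.9%), where 2.66% fell and 0.927% rose. The median log2 difference of the 7 was 0.13 in unirradiated and -0.02 in irradiated cells, against -0.02 in both arms for all tested genes. Over both arms together 0 of the 7 passed, against 7.43% of all tested genes, and 2 had an unadjusted limma p under 0.05, against 21.7%. After radiation 1 of these 7, RAC2, rose and 0 fell in WT cells, where 2.24% of all tested genes rose and 1.5% fell. In KO cells 0 passed, where 2.0% rose and 1.7% fell. RAC2 and NOXA1, 2 of the 7, had an unadjusted limma p under 0.05 in each line, against 18.2% of all tested genes in WT and 18.1% in KO cells. Over both genotypes 1 of the 7, RAC2, rose and 1, NOXA1, fell, against 6.14% and 4.04%. The difference between the lines was not past the threshold for any of the 7.

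RAC2, the blood-cell RAC that serves NOX2, was listed at 74.2, 73.1 and 63.5 TPM in WT and rose to 95.6, 90.5 and 85.8 TPM in WT + RT libraries (log2 0.36 ± 0.08, limma adjusted p = 0.031). The fold lay between 0.29 and 0.41 when single libraries were left out, but the call was lost without a filter (limma adjusted p = 0.052), in the fit to only the compared libraries (0.10) and without single libraries (up to 0.11). In WT cells the summed phagocyte markers, mostly CD68, moved the same way, though CD68 did not itself pass (limma adjusted p = 0.14). In KO cells the sum overlapped, at means of 24.2 TPM without and 24.6 TPM with radiation. The part of these markers in the RAC2 values was not tested. In KO cells RAC2 stood at 73.3, 61.98 and 64.3 TPM without and 83.1, 80.6 and 82.3 TPM with radiation (log2 0.30, limma adjusted p = 0.061), and over both genotypes it rose by 0.33 (adjusted p = 0.0039). NOXA1, the NOX1 activator, fell over both genotypes by 0.41 on the log2 scale (limma adjusted p = 0.017), from 2.89 to 4.19 TPM unirradiated to 1.77 to 2.86 TPM after radiation. Over both arms NOXA1 was higher in KO than in WT by 0.24 (limma adjusted p = 0.14). Unirradiated libraries did not overlap, at 3.47 to 4.19 TPM in KO and 2.89 to 3.20 TPM in WT, where 5.63% of all genes above 0 were higher without overlap. NOXO1, the NOX1 organizer, lay between 4.90 and 8.41 TPM and RAC1, the general RAC, between 306 and 327 TPM, with neither past the threshold in any comparison. CYBC1, the chaperone of the CYBB and CYBA pair, lay between 37.3 and 70.4 TPM and did not pass either. NOX3 and DUOXA2 were listed at 0 in all 12 libraries and NOX5 between 0.00866 and 0.045 TPM, so DUOX2 was listed without its own maturation factor.

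**Figure D5:**
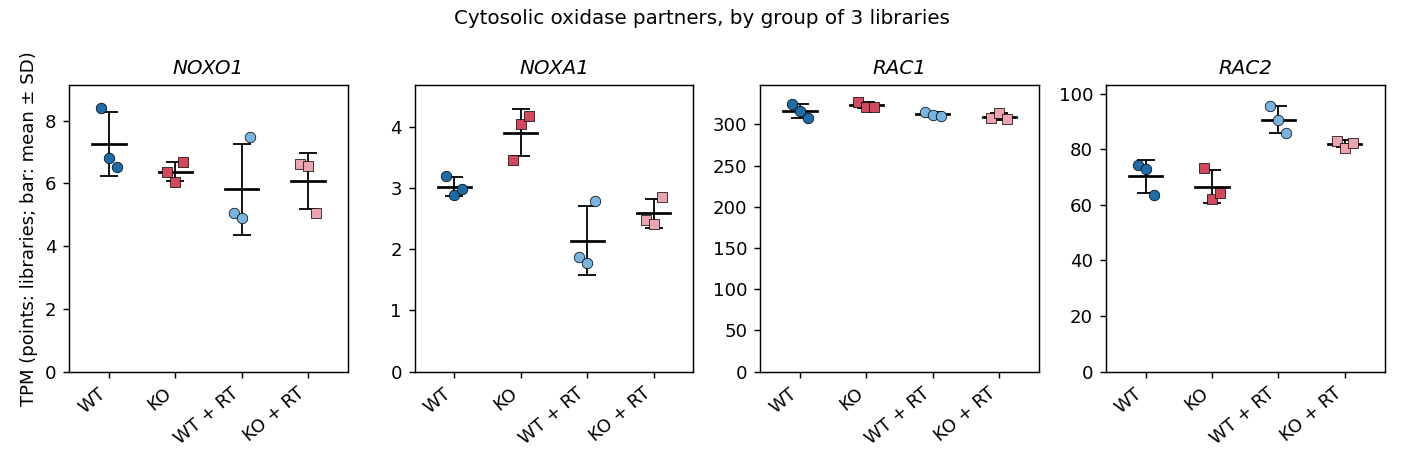
TPM of the cytosolic partners NOXO1, NOXA1, RAC1 and RAC2 by group, with each point a library and bars for the mean ± SD of 3 libraries. All RAC2 points after radiation, 80.6 to 95.6 TPM, lie above the unirradiated ones, 61.98 to 74.2 TPM. The KO and WT points of NOXO1 overlap in both arms, and those of NOXA1 overlap only after radiation.

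Of 19 regulators and adaptors of oxidase assembly, 17 were tested. In unirradiated KO cells none of the 17 passed, against 1.73% of all tested genes (1, POLDIP2, had an unadjusted limma p under 0.05, against 14.3%). In irradiated KO cells 1 of the 17 passed, against 3.59% of all tested genes (4 had an unadjusted limma p under 0.05, against 17.9%). POLDIP2, which binds CYBA and activates NOX4, fell by 0.18 on the log2 scale (limma adjusted p = 0.049), from 158, 162 and 160 TPM in WT + RT to 146, 137 and 140 TPM in KO + RT libraries. Over both arms 1 of the 17 passed, against 7.43% of all tested genes: POLDIP2 was lower in KO by 0.14 (limma adjusted p = 0.020). In unirradiated cells it differed by -0.10 (limma adjusted p = 0.31), and the difference between the radiation effects did not pass (adjusted p = 0.87). After radiation 0 of the 17 rose and 1 fell in WT cells, against 2.24% and 1.5% of all tested genes. In KO cells 2 rose and 1 fell, against 2.0% and 1.7%. An unadjusted limma p under 0.05 was reached by 6 of the 17 in WT and 7 in KO cells, against 18.2% and 18.1% of all tested genes. VAV3, an exchange factor that activates RAC, fell after radiation in WT cells by 0.61 (limma adjusted p = 0.0095) and in KO cells by 0.46 (adjusted p = 0.034). SH3PXD2B, an organizer-like adaptor, rose by 0.56 (adjusted p = 0.019) and SRC, a kinase that phosphorylates oxidase organizers, by 0.17 (adjusted p = 0.048) in KO cells. In WT cells they differed by 0.36 and 0.13 (limma adjusted p = 0.097 and 0.12), and the difference between the lines did not pass for either (adjusted p = 0.87 and 0.93). Over both genotypes 4 of the 17 rose and 2 fell, against 6.14% and 4.04% of all tested genes. SH3PXD2B rose by 0.46, SRC by 0.15, ARHGDIB by 0.28 and PRDX6, a peroxiredoxin that binds oxidase components, by 0.09 (limma adjusted p = 0.0038, 0.0092, 0.021 and 0.048). VAV3 fell by 0.54 and PRKCD, a kinase that phosphorylates NCF1, fell by 0.19 (limma adjusted p = 0.0012 and 0.024). The calls of POLDIP2 in irradiated cells, SRC in KO cells and PRDX6 lie close to the threshold of 0.05. No call of this list was followed through the other runs.

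Of genes around the supply of NADPH, the electron donor of all these oxidases, 7 were followed, all tested. Not all of their enzymes make NADPH: TKT and TALDO1 belong to the non-oxidative branch of the pentose phosphate pathway. After radiation 2 of the 7 fell in WT cells and the same 2 in KO cells, namely TKT, of the pentose phosphate pathway, and ME1, the cytosolic malic enzyme, and none rose (1.5% and 1.7% of all tested genes fell). TKT stood at 497, 482 and 521 TPM in WT and 367, 399.6 and 367 TPM in WT + RT libraries, a log2 difference of -0.40 ± 0.05 (SE; limma adjusted p = 0.0024), and in KO cells the difference was -0.25 (adjusted p = 0.026). ME1 differed by -0.19 in each line (limma adjusted p = 0.029 in WT and 0.028 in KO cells). The median of the 7 was -0.19 in WT and in KO cells, against 0.02 for all tested genes in both. Over both genotypes 3 of the 7 fell, the third being TALDO1, also of the pentose phosphate pathway, by 0.13 (limma adjusted p = 0.025), against 4.04% of all tested genes. Of these 3, only ME1 makes NADPH itself. The other listed genes did not pass, PGD differing by -0.34 and IDH1 by -0.32 over both genotypes (limma adjusted p = 0.087 and 0.11). In that comparison 5 of the 7 were lower and 2 higher. An unadjusted limma p under 0.05 was reached by 4 of the 7 in WT and 4 in KO cells, against 18.2% and 18.1% of all tested genes. Over both genotypes 5 of the 7 reached it, against 24.5%. None of the 7 passed in KO against WT cells within an arm, against 1.73% and 3.59% of all tested genes (1 had an unadjusted limma p under 0.05 in unirradiated and 2 in irradiated cells, against 14.3% and 17.9%), and over both arms TALDO1 was higher in KO by 0.14 (adjusted p = 0.022), against 7.43%.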

How the data were processed

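Polyadenylated RNA of 12 FaDu libraries was sequenced as paired ends. The authors deposited TPM per gene and library, which sum to 1000000 in each; the submitters' processing notes name HISAT2, StringTie, DESeq2 and hg38, and the annotation, strand setting and depth are not given in the sources used here. The deposited columns name the KO line by a code that the labels do not explain. The code was read as KO because it marks the only other line and because its values match those under the STING KO heading of the study's supplementary table (150 of 150 entries within 0.001), so this assignment rests partly on values; TMEM173 was lower in each such column.

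Here, log2(TPM + 1) of the 15973 genes that reached 1 TPM in 3 libraries or more was fitted with 4 group means in limma 3.58.1 (R 4.3.3, eBayes with trend, 8 residual degrees of freedom), with Benjamini-Hochberg adjustment over all of them at a threshold of 0.05; the code was tested on simulated data. Members under that filter were compared by two-sided exact permutation tests of mean TPM. Counts were not used here. Gene positions are from GENCODE release 29 and promoters from RefSeq. Members, partner, regulator, NADPH supply and marker lists were chosen with earlier results of these data known; list genes are named where past the threshold or as the partner of a member described. The labels give no batch or date. Other scalings, filters and pseudocounts, the replicate number as a block, and leaving out each library were tried. Their results were followed for the members, the sum of NCF1 and its copies, RAC2, NOXA1 and the counts over all genes. Calls of the other listed genes were not followed through these runs. Results of some genes of these lists are not reported here.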

Additional observations from a re-analysis of the deposited data

How the results depend on the processing

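No tested subunit passed the threshold under any alternative run: 0 of 3 with a pseudocount of 0.1, scaling by median-of-ratios factors, a block on the replicate number or single libraries left out, 0 of 8 with no filter and 0 of 2 with a filter at a mean of 5 TPM, in each of the 7 comparisons, and 0 of 3 in fits restricted to the compared libraries, which were run for 4 of the 7; so the replicate block, whose count of members called was 0 as well, changed no call of a member; libraries with the same number did not deviate together (r from -0.060 to 0.064). Among low subunits, the count with an exact permutation p under 0.05 ranged from 0 to 1 for KO and from 1 to 2 for radiation when single libraries were left out, through DUOXA1 and DUOX2 as given above. Median-of-ratios factors turned DUOX1 with radiation over both genotypes to -0.019, and the log2(TPM + 0.1) scale turned DUOX2 in KO over both arms to -0.11. Leaving out single libraries turned the direction of values near 0. For KO in unirradiated cells NCF1 ranged from -0.32 to 0.088 and DUOX1 from -0.037 to 0.10, and for KO in irradiated cells NCF1 from -0.21 to 0.079. For radiation CYBA ranged from -0.0026 to 0.053 in WT cells, and in KO cells DUOX1 from -0.052 to 0.20. The NCF1 difference of radiation effects ranged from -0.15 to 0.25. For KO over both arms NCF1 ranged from -0.19 to 0.013, CYBA from -0.0042 to 0.026, NCF4 from -0.0329 to 0.147 TPM and DUOX2 from -0.0513 to 0.0770 TPM, and for radiation over both genotypes DUOX1 from -0.069 to 0.058; the cause of these turns was not tested beyond the smaller number of libraries. The all-gene background moved by over 1.5 times in 6 comparisons: from 276 genes to 103 for KO in unirradiated cells, from 573 to 252 in irradiated cells, from 597 to 166 for radiation in WT cells, from 590 to 195 in KO cells (each in the fit to only the libraries compared), from 3 to between 1 and 9 for the difference of radiation effects, and from 1187 to 788 for KO over both arms (without KO replicate 2). The tests of the sum of NCF1 and its copies were not planned, and their alternatives were chosen after seeing the data. The absence of read depth limits every value under 1 TPM.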
